A study of Mus musculus with 6 samples.

Results

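The genes described here encode the subunits and assembly factors of respiratory complexes II, III and IV, together with the electron carrier cytochrome c. The 37 members were listed by name and sorted by role: 4 subunits of complex II, 9 of complex III and 12 of complex IV, the carrier gene Cycs, the supercomplex factor Cox7a2l, 7 assembly factors of complex IV and 3 of complex III. Of these, 36 were found among the 33184 genes of the table. Sco2, a copper chaperone of complex IV, enters only the promoter windows, and its level was not analysed here.

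These complexes pass electrons along the inner mitochondrial membrane. Complex II, succinate dehydrogenase, takes electrons from succinate in the TCA cycle, complex III hands them from ubiquinol to cytochrome c, and complex IV, cytochrome c oxidase, gives them to oxygen. Complexes III and IV pump protons, and their catalytic cores hold subunits made from the mitochondrial genome, while complex II is encoded in the nucleus alone. Assembly factors insert haem, copper and iron-sulfur centres but are not part of the finished enzyme. Muscle and brown fat are rich in these enzymes and use tissue isoforms of some complex IV subunits.

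Transcripts were measured by RNA-seq of wound tissue from db/db mice, which lack a working leptin receptor and become obese and diabetic, on the C57BL/Ks background. All wounds were dorsal full-thickness wounds of 6 mm, and siRNA was injected around them at dpi1 (1 day post-injury). The 3 NC libraries came from wounds given a control siRNA and the 3 libraries labelled SFRP2-siRNA from wounds given siRNA against Sfrp2, a secreted Wnt modulator. Tissue was taken at dpi4, although the titles carry day 3, and age was not given. The injection reaches any cell near the wound, and whether each treated wound received the same siRNA sequence was not stated. Each library was treated as 1 animal, so the p-values measure the spread between these libraries, which may be partly technical. The question addressed was whether genes of energy metabolism differ between the groups.

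The libraries rested on 42.9 to 47.1 M reads (M, the prefix mega). NC 1 stood apart: its 13 mitochondrially encoded protein genes held 34.5% of the summed FPKM (reads of a gene per kilobase of its length, scaled to library size), against 11.5% to 21.4% in the other 5 libraries. Sfrp2 went against its label, with 11.6, 40.6 and 14.1 FPKM in NC 1, 2 and 3 and 50.6, 54.6 and 55.2 FPKM under the SFRP2-siRNA label. Directions below are therefore stated for libraries by their label only. Keratinocyte genes, which mark skin, were present throughout at a summed 3352 to 6658 FPKM. Tissue markers also differed between libraries. The summed level of 5 brown adipocyte genes was 1958, 1140 and 689 FPKM in NC 1, 2 and 3 and 445, 197 and 172 FPKM in SFRP2-siRNA 1, 2 and 3. Fibroblast genes, 5 of them, summed to 778 to 1742 FPKM in NC and 1922 to 2001 FPKM in the other group, and 5 macrophage genes to 573 to 1053 and 1195 to 1611 FPKM. No gene of these lists was at 0 in any library, and the part of these markers in the members' values was not tested. In a bulk sample, fewer cells of a type and less RNA per cell cannot be told apart.

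The subunit transcripts had lower mean values under the SFRP2-siRNA label, while the log2 fold changes of the assembly factors were smaller. Of the 36 members, 34 had a log2 fold change below 0, where 28.2% of all 16005 genes tested did. The median was -0.47 for the members and 0.13 for all genes. Fold changes are on the scale of log2(FPKM + 1), which understates the difference of low genes. The 25 subunits were all lower, with a median of -0.54 and a range of -1.08 to -0.14. The 9 assembly factors had a median of -0.08 and a range of -0.35 to 0.16, and 7 of them were below 0. Of the 9, 8 lay below the median of all genes. After median-of-ratios scaling, which brought the median of all genes to 0.00, the assembly factor median was -0.20 and the subunit median -0.71.

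No member passed the threshold of an adjusted p under 0.05 with an absolute log2 fold change above 1. With limma, 0 of 16005 genes passed (0%), and the adjusted p-values of the members ran from 0.518 to 0.996. At an unadjusted p under 0.05, 11 members were lower and 0 higher, against 2.86% of all genes lower and 6.72% higher. All 3 libraries labelled SFRP2-siRNA lay below all 3 NC libraries for 21 members and above them for 0, against 3.92% and 13.9% of all genes. A gene whose groups do not overlap has an exact permutation p of 0.1, the lowest possible with 3 libraries a group. The count of 11 depended on single libraries: it was 7 without NC 1, 4 without SFRP2-siRNA 2 and 7 without SFRP2-siRNA 3. The share of all genes lower at that threshold was 2.67%, 2.17% and 1.89% in these fits, in that order.

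**Figure D1:**
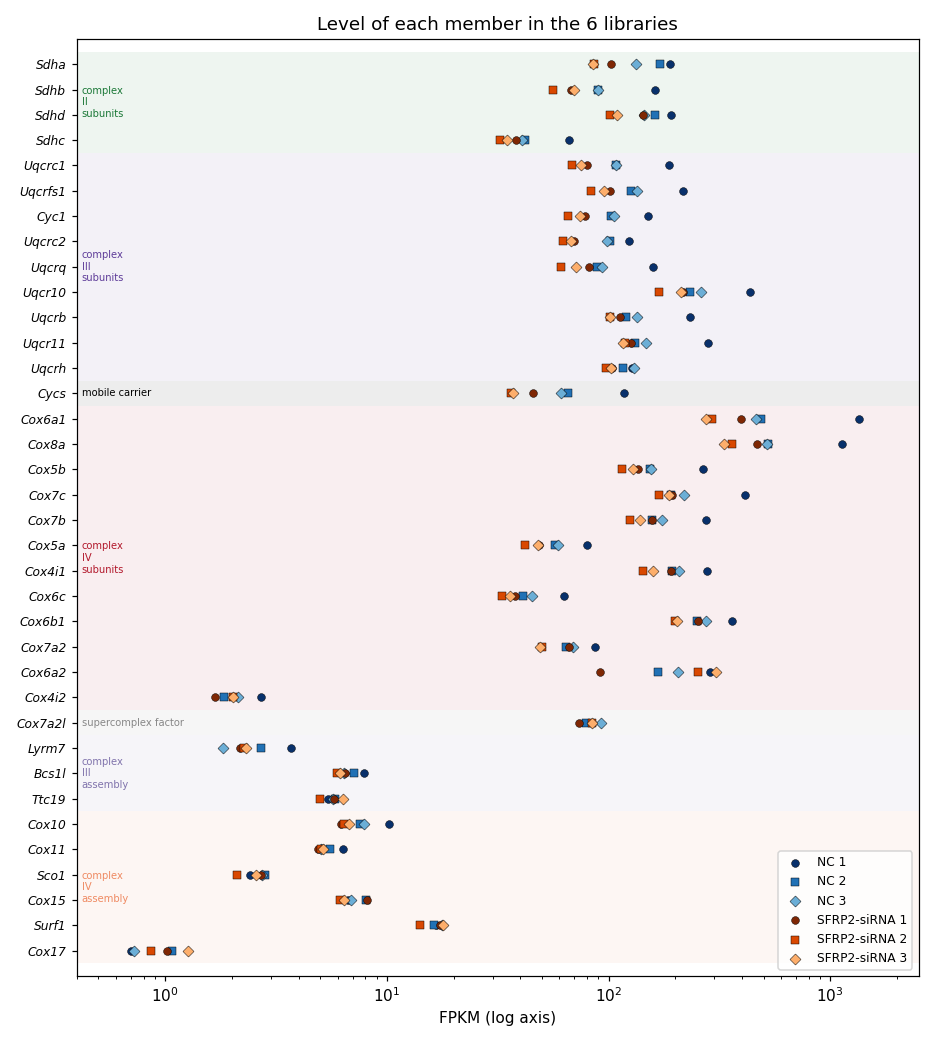
Level of each of the 36 members in FPKM on a log axis, 1 point per library, with shading by role. Complex II, III and IV subunits sit mostly between 30 and 300 FPKM with NC 1 farthest to the right, and the assembly factors lie below 20 FPKM with the libraries intermixed.

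**Figure D2:**
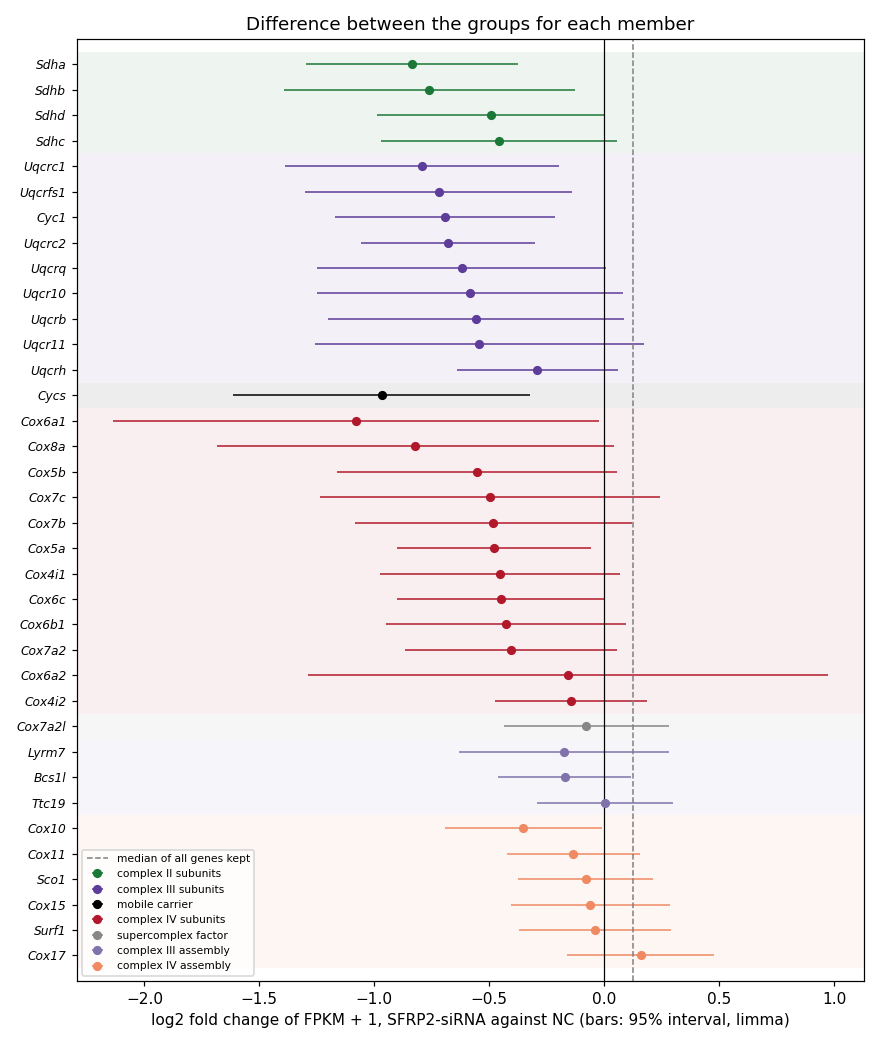
Log2 fold change of each member in the libraries labelled SFRP2-siRNA against NC, with 95% intervals from limma; the dashed line is the median of all genes, 0.13. The 25 subunits lie left of 0, with medians of -0.63 for complex II, -0.62 for complex III and -0.47 for complex IV. The 9 assembly factors lie between -0.35 and 0.16, 8 of them left of the dashed line.

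Promoters are shown as a description, and a link between motifs and fold changes was not tested. RefSeq windows of GRCm38.p6 (250 bases before the transcription start and 50 after) matched 27 of the 37 listed members by symbol, Sco2 included. Each was searched on both strands for the core of the NRF1 site, GCGCNTGCG, and of the ETS site bound by GABP, CCGGAAG, factors known for driving respiratory genes, and for the YY1 site AAGATGGCG. The NRF1 core occurred in 8 of the 27 windows (29.6%) and in 6.59% of all 27025 windows. It was found in 6 of 16 subunit windows and in 1 of 9 assembly factor windows, Ttc19, a difference that was not tested. Only 16 of the 25 subunits had a window. The ETS core occurred in 12 of 27 (44.4%) against 9.12% of all, and its share was 43.8% for subunits and 55.6% for assembly factors. The YY1 site was in 1 member window, that of Cox10, and in 1.49% of all. A match describes letters in the window, not binding. For 20 of the 27 windows, the bases after the start were found near the opening of a GENCODE vM21 transcript of the gene. Positions in the other windows rest on the RefSeq start alone.

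The 250 bases before the start are printed, 5′ to 3′ on the gene's strand, for the lowest log2 fold change of complex II, the carrier gene, complex IV and the assembly factors. Capitals mark the NRF1 core in Sdha, Cycs and Cox6a1 and the ETS core in Cox6a1 and Cox10. In Cox6a1 the first capital run is a pair of NRF1 matches that overlap on opposite strands, and the last, CTTCCGG, is the ETS core read on the other strand. The windows are, on the minus strand, chr13:74350241-74350490 for Sdha, chr6:50566570-50566819 for Cycs, chr5:115348959-115349208 for Cox6a1 and chr11:64079473-64079722 for Cox10. In Uqcrc1, the lowest of complex III, all 3 NRF1 matches lay after the start.
Sdha: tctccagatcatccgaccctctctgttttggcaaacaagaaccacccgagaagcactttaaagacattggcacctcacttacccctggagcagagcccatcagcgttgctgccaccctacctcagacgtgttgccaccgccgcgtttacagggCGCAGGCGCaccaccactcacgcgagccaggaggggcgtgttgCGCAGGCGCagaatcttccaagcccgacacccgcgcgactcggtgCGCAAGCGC
Cycs: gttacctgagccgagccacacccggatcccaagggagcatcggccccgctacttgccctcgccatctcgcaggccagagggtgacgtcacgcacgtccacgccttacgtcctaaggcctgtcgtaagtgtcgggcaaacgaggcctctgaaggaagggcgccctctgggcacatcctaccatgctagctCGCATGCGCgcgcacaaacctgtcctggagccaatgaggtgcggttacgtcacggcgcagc
Cox6a1: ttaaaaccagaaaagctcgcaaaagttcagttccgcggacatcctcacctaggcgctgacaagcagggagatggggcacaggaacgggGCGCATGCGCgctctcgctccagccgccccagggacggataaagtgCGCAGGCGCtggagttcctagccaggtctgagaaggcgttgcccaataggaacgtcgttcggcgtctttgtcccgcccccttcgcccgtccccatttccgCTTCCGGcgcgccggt
Cox10: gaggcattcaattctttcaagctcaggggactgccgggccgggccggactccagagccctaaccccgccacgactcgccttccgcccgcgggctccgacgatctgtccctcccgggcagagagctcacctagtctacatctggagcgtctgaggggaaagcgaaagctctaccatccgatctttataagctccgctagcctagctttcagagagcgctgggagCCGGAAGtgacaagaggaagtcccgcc

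All 4 complex II transcripts had lower values under the SFRP2-siRNA label, by 28.8% to 44.6% of the NC mean, and the groups did not overlap for any of them. Sdha (ENSMUSG00000021577), the flavoprotein that oxidises succinate, had 189, 170 and 133 FPKM in NC 1, 2 and 3. In SFRP2-siRNA 1, 2 and 3 the values were 102, 85.8 and 84.9 FPKM. Its lowest NC library thus stood above the highest of the other group, and the log2 fold change was -0.84 (SE 0.19), with an unadjusted limma p of 0.00377, the smallest of any member. Its printed promoter holds 3 NRF1 matches, at -97, -54 and -9 from the start.

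Sdhb, the iron-sulfur subunit, had 162, 89.2 and 90.01 FPKM in NC and 67.5, 56.0 and 69.7 FPKM under the SFRP2-siRNA label. NC 1 was far above NC 2 and 3 here, and the log2 fold change was -0.76 (SE 0.27). Sdhc and Sdhd anchor the enzyme in the membrane. Sdhc had 66.2, 41.9 and 40.8 FPKM in NC against 38.1, 32.4 and 34.7 FPKM. The gap between the groups was narrow in Sdhc, and its unadjusted limma p was 0.0733. Sdhd had 191, 162 and 144 FPKM in NC against 143, 101 and 109 FPKM. SFRP2-siRNA 1 reached almost the level of NC 3 in Sdhd, and the log2 fold changes were -0.46 (SE 0.22) for Sdhc and -0.49 (SE 0.21) for Sdhd. Without NC 1 they were -0.48 for Sdhb and -0.23 for Sdhc.

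The 9 complex III subunits were all lower without overlap, with log2 fold changes from -0.79 to -0.29 and a median of -0.62. Uqcrc2, a core protein that holds the complex together, had 123, 102 and 98.1 FPKM in NC and 69.7, 62.1 and 67.9 FPKM under the SFRP2-siRNA label. The libraries of each group lay close together, and the log2 fold change was -0.68 (SE 0.16) with an unadjusted limma p of 0.00405. Cyc1, the cytochrome c1 that delivers electrons to cytochrome c, had 151, 103 and 105 FPKM in NC and 77.9, 65.7 and 74.6 FPKM. Its groups were well apart, with a log2 fold change of -0.69 (SE 0.20). Uqcr11, a small accessory subunit, had 281, 131 and 148 FPKM in NC and 126, 119 and 116 FPKM. The difference in Uqcr11 came largely from NC 1, with a log2 fold change of -0.54 (SE 0.30) in all libraries and -0.21 without NC 1.

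Among the other complex III genes, the core protein Uqcrc1 and the Rieske iron-sulfur protein Uqcrfs1 had the lowest log2 fold changes, -0.79 and -0.72, and unadjusted limma p-values of 0.0164 and 0.0222. The small subunits Uqcrq, Uqcr10 and Uqcrb had -0.62, -0.58 and -0.56. Without NC 1, these 3 genes had -0.35, -0.32 and -0.27, and Uqcrfs1 had -0.48. Uqcrh, the hinge protein that assists contact with cytochrome c1, was nearest to 0, at -0.29. It was also 1 of 2 subunits in which NC 1 was not the highest library, with 127, 116 and 130 FPKM in NC and 104, 97.6 and 103 FPKM in the other group. Uqcrh and Cycs have named pseudogenes, 2 each, whose reads could be shared with them. Of the exon bases of Uqcrc2, 19.7% also lie in Pdzd9 on the opposite strand, and whether the counting used strand was not stated.

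Cycs (ENSMUSG00000063694), the mobile carrier between complexes III and IV, was lower by a wider margin than any complex II or III gene. It had 118, 65.9 and 61.0 FPKM in NC and 45.4, 36.3 and 37.0 FPKM under the SFRP2-siRNA label. All 3 NC libraries were above the other 3, and the mean of the latter was 48.6% of the NC mean. The log2 fold change was -0.97 (SE 0.27), with an unadjusted limma p of 0.00966, and it was -0.67 without NC 1.

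The 12 complex IV subunits were lower too, with a median of -0.47, and their groups overlapped more often: 6 of 12 did not overlap. That difference from complexes II and III was not tested. Cox6a1, the ubiquitous form of subunit VIa, had the highest NC mean of any member and the lowest log2 fold change. Its values were 1347, 485 and 464 FPKM in NC and 395, 294 and 275 FPKM under the SFRP2-siRNA label. NC 1 was far above NC 2 and 3, and the log2 fold change of -1.08 (SE 0.44) was -0.58 without NC 1. Cox5a, a matrix-facing subunit, had 79.7, 57.3 and 59.0 FPKM in NC against 48.5, 41.9 and 48.0 FPKM. The Cox5a groups were apart by a small gap, with a log2 fold change of -0.48 (SE 0.18) and an unadjusted limma p of 0.0318.

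The other nuclear subunits of complex IV ranged from -0.82 for Cox8a to -0.41 for Cox7a2 on the log2 scale, leaving out the isoforms Cox4i2 and Cox6a2. Cox8a, Cox5b, Cox4i1 and Cox6c did not overlap between the groups, with -0.82, -0.56, -0.45 and -0.45. In Cox7c, Cox7b, Cox6b1 and Cox7a2 the groups overlapped, with -0.50, -0.48, -0.43 and -0.41. In these 4 genes SFRP2-siRNA 1 lay above NC 2 by a small amount, as with Cox7b at 158 against 157 FPKM. Without NC 1 all 8 of these genes were nearer to 0: Cox8a had -0.45, Cox5b -0.29, Cox4i1 -0.29, Cox6c -0.27, Cox7c -0.16, Cox7b -0.24, Cox6b1 -0.27 and Cox7a2 -0.28. The highest levels per length in NC were those of Cox6a1 at 766 ± 504 FPKM (SD of 3 libraries) and Cox8a at 724 ± 355 FPKM, which were not told apart by their spread. Uqcr10 of complex III followed at 309 ± 108, Cox6b1 at 295 ± 58.1 and Cox7c at 275 ± 122 FPKM, again within each other's spread. At the low end were Sdhc at 49.6 ± 14.4 and Cox6c at 49.7 ± 11.6 FPKM, and far below all other subunits was Cox4i2.

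Some complex IV subunits have tissue isoforms, and these did not share a pattern. Cox6a2 replaces Cox6a1 in heart and skeletal muscle. It had 286, 168 and 205 FPKM in NC and 91.1, 254 and 304 FPKM under the SFRP2-siRNA label. SFRP2-siRNA 3 was thus the highest and SFRP2-siRNA 1 the lowest library, and the range of this group enclosed all 3 NC libraries. Its log2 fold change was -0.16 (SE 0.47), with a 95% interval of -1.29 to 0.97, and was above 0 without SFRP2-siRNA 1 or without NC 1. Mb, the oxygen store of muscle, named here after its values were seen, had 269, 195 and 234 FPKM in NC and 66.6, 330 and 345 FPKM, so the same library was lowest. Of 10 skeletal muscle genes, Mb was the only 1 with a log2 fold change below 0, and 9 were above 0. Their summed level was 3851, 5484 and 7350 FPKM in NC 1, 2 and 3, so it was lowest in NC 1. In SFRP2-siRNA 1, 2 and 3 it was 4838, 7557 and 13813 FPKM. The part of muscle content in the Cox6a2 values was not tested.

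Cox4i2, a form of subunit IV known from lung and from oxygen sensing, had 2.70, 1.84 and 2.13 FPKM in NC and 1.69, 2.02 and 2.02 FPKM. These values rested on 57 to 94 reads a library, and the groups overlapped, with a log2 fold change of -0.14 (SE 0.14), which was -0.04 without NC 1. As a percentage of Cox4i1, it was between 0.886% and 1.42% in every library. Cox6a2 was 21.3%, 34.5% and 44.1% of Cox6a1 in NC and 23.1%, 86.6% and 110.5% in the other group (exact permutation p 0.3). SFRP2-siRNA 1 lay among the NC libraries in this ratio and SFRP2-siRNA 2 and 3 lay above them.

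Cox7a1 and Cox8b, forms of subunits VIIa and VIII found in muscle and brown fat, were taken from a further list of 4 complex IV genes. That list also held Ndufa4, at -0.49 without overlap, and Cox6b2, at 0.01 with overlap. Cox7a1 had 206, 65.7 and 59.4 FPKM in NC and 34.4, 28.8 and 34.4 FPKM under the SFRP2-siRNA label, with a log2 fold change of -1.49 (SE 0.46). Cox8b had 359, 156 and 119 FPKM and 83.3, 53.4 and 62.4 FPKM, which gave a log2 fold change of -1.51 (SE 0.42). Both log2 fold changes were farther below 0 than that of any member, and the groups did not overlap. Relative to the member Cox7a2, Cox7a1 was at 86.4% to 237% in NC and 51.8% to 70.1% in the other group. Relative to Cox8a, Cox8b was at 22.9% to 31.6% and 14.9% to 18.9%. The exact permutation p was 0.1 for both of these ratios and 0.4 for Cox4i2 to Cox4i1, and after adjustment over the 4 ratios the values were 0.2, 0.2, 0.4 and 0.4 in the order Cox7a1, Cox8b, Cox6a2 and Cox4i2.

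**Figure D3:**
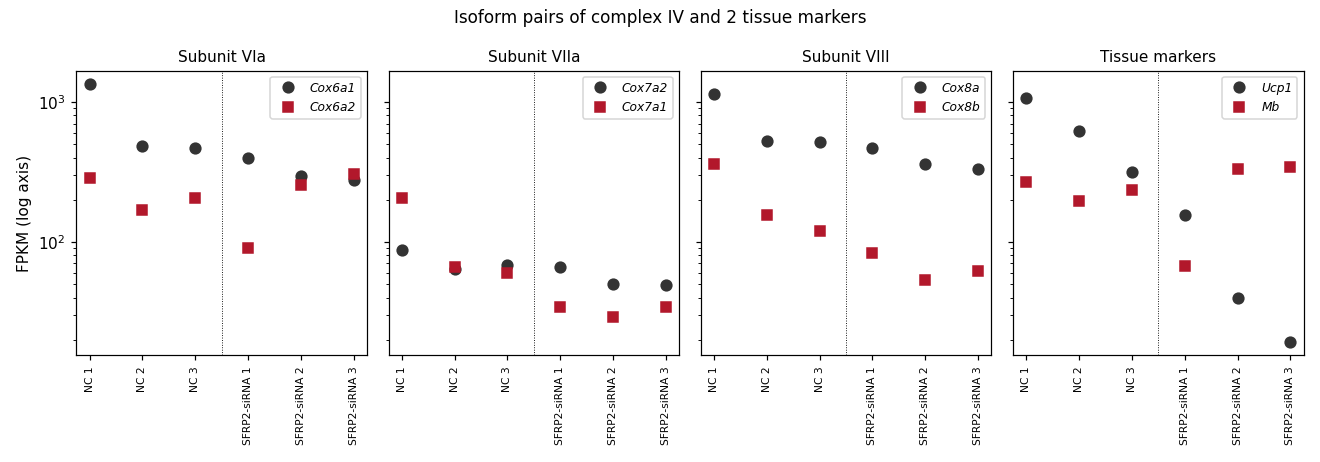
FPKM on a log axis in each library for the isoform pairs Cox6a1 and Cox6a2, Cox7a2 and Cox7a1, Cox8a and Cox8b, and for Ucp1 and Mb; the dotted line divides NC from the libraries labelled SFRP2-siRNA. Cox7a1, Cox8b and Ucp1 are lower right of the line, and Cox6a2 and Mb are both lowest in SFRP2-siRNA 1. Of the 10 muscle genes listed, Mb is the only 1 with a log2 fold change below 0.

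Brown adipocyte markers also had lower values under the SFRP2-siRNA label. Ucp1, the uncoupling protein that defines brown and beige fat, had 1061, 615 and 314 FPKM in NC and 157, 39.9 and 19.1 FPKM in the other group, which gave a log2 fold change of -3.55 (SE 0.79). All 5 brown adipocyte genes had log2 fold changes below 0, 3 of them without overlap, with a median of -1.51. Elovl3 was close to 0, at -0.06, and Dio2 was at -0.465, both with groups that overlapped. Cox8b is 1 of these 5 and its value is the median. The part of brown fat content in the subunit values was not tested. The white and shared adipocyte genes overlapped, at 1663 to 2072 FPKM in NC and 872 to 2318 FPKM.

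Cox7a2l, which helps complexes III and IV join into supercomplexes and is a relative of Cox7a2, had 84.4, 79.1 and 92.0 FPKM in NC and 73.6, 84.1 and 84.4 FPKM under the SFRP2-siRNA label. The groups overlapped, and the log2 fold change was -0.08 (SE 0.15) with a 95% interval of -0.43 to 0.28. After rescaling to equal sums it was 0.02. Its level resembled that of a subunit, whereas its difference lay in the range of the assembly factors.

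Of the 6 complex IV assembly factors measured, 1 had groups that did not overlap. Cox10, which makes the haem A precursor, had 10.3, 7.55 and 7.87 FPKM in NC and 6.21, 6.40 and 6.72 FPKM under the SFRP2-siRNA label. All NC libraries were above the other group, and the log2 fold change was -0.35 (SE 0.14) with an unadjusted limma p of 0.0463. Without NC 1 it was -0.23. Cox17, which carries copper to the complex, had 0.70, 1.07 and 0.73 FPKM in NC and 1.02, 0.86 and 1.26 FPKM. The Cox17 libraries were intermixed, on 179 to 343 reads each, with a log2 fold change of 0.16 (SE 0.13). Surf1, a haem insertion factor whose loss causes Leigh syndrome, had 16.6, 16.3 and 17.7 FPKM against 17.3, 14.1 and 18.0 FPKM. Its groups overlapped, with a log2 fold change of -0.04 (95% interval -0.37 to 0.29), and it was 0.05 after rescaling to equal sums. Cox11, a copper chaperone, had -0.13 (-0.06 without NC 1), the copper metallochaperone Sco1 -0.08, and Cox15, which makes haem A, -0.06 and 0.02 after rescaling to equal sums. In Cox11, 48.3% of the exon bases also lie in Tom1l1 on the opposite strand, so its reads are uncertain.

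The 3 complex III assembly factors overlapped between the groups. Bcs1l, which inserts the Rieske protein, had 7.88, 7.09 and 6.40 FPKM in NC and 6.48, 5.95 and 6.14 FPKM under the SFRP2-siRNA label. Only SFRP2-siRNA 1 reached into the NC range, and the log2 fold change was -0.17 (95% interval -0.46 to 0.12), and -0.11 without NC 1. Lyrm7, a chaperone of the Rieske protein, had 3.70, 2.70 and 1.83 FPKM in NC and 2.18, 2.26 and 2.32 FPKM. NC held both the highest and the lowest Lyrm7 library, with a log2 fold change of -0.17 (SE 0.19) that was 0.01 without NC 1 and -0.36 without NC 3. Ttc19, which clears Rieske fragments, had 5.43, 5.82 and 5.72 FPKM against 5.77, 4.98 and 6.31 FPKM. Its log2 fold change was 0.00 (95% interval -0.29 to 0.30), and it was between -0.14 and -0.09 after median-of-ratios scaling, quantile normalization or rescaling without mitochondrially encoded genes.

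The order of the libraries is given as a description. NC 1 was the highest library in 23 of 25 subunits, the exceptions being Cox6a2 and Uqcrh, and SFRP2-siRNA 2 was the lowest in 17. Among the 9 assembly factors NC 1 was highest in 4 and SFRP2-siRNA 3 in 3. Measured from each gene's NC mean on the log2 scale, the median of the subunits was 0.44, -0.27 and -0.19 in NC 1, 2 and 3. In SFRP2-siRNA 1, 2 and 3 it was -0.45, -0.65 and -0.56. NC 2 and 3 therefore lay nearer to SFRP2-siRNA 1 than to NC 1. The same median for the assembly factors was -0.02, 0.01 and -0.08 in NC and 0.02, -0.19 and -0.11 in the other group, a narrower range with overlap.

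**Figure D4:**
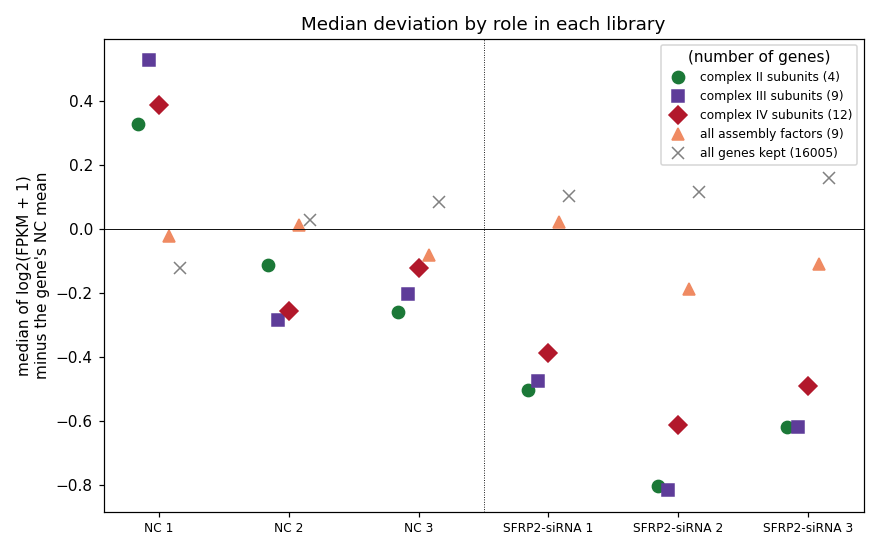
Median over the genes of each role of log2(FPKM + 1) minus the gene's NC mean, 1 point per role and library; the number of genes is in the legend. The subunits of complexes II, III and IV run from above 0 in NC 1 to between -0.39 and -0.82 under the SFRP2-siRNA label. The assembly factors stay between -0.19 and 0.02 and all genes between -0.12 and 0.16.

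The subunit median minus the assembly factor median was -0.46 on the log2 scale, a difference in which the scaling of libraries largely cancels. It was -0.23 without NC 1 and -0.65 without NC 2, the extremes over all alternatives. Leaving out NC 1 also brought the median of the members to -0.27 and of the subunits to -0.29, while 22 members had groups that did not overlap, against 7.34% of all genes in that comparison. Assembly factors had NC means of 0.83 to 16.9 FPKM, far below the subunits other than Cox4i2. FPKM divides by the whole gene model, 5773 bases for Cox17, so its level per length depends on that model.

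**Figure D5:**
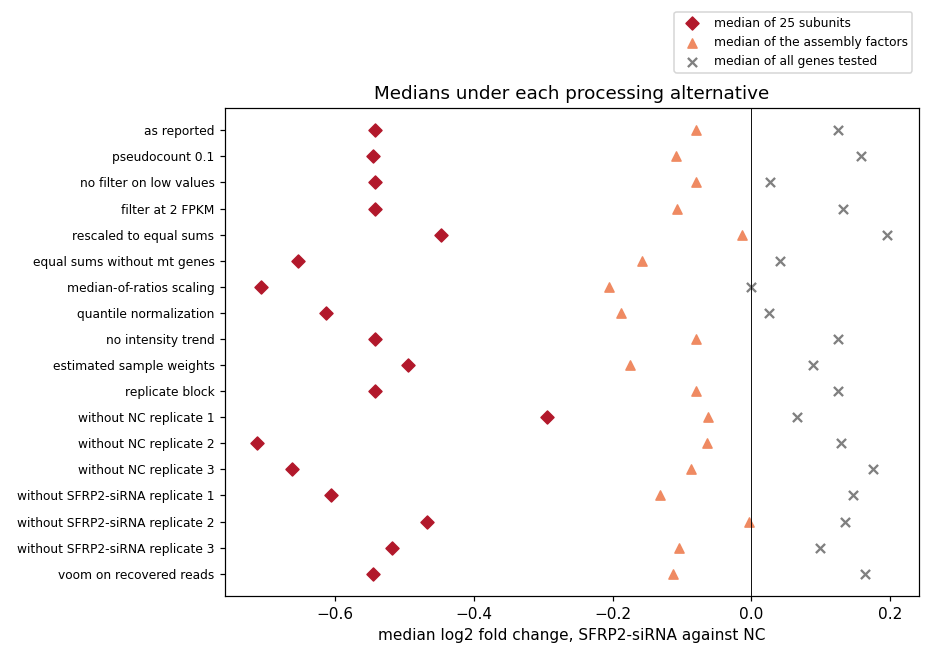
Median log2 fold change of the 25 subunits, the assembly factors and all genes tested, for the processing as reported and 17 alternatives. The subunit median stays between -0.71 and -0.29, below the assembly factor median in each, and is nearest to 0 without NC 1.

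The remaining assembly genes of the pathway were counted in the same way, and none of them passed the adjusted threshold. Of 4 complex II assembly factors, 2 were below 0 and 0 had an unadjusted p under 0.05, with Sdhaf3 at -0.11 and Sdhaf1 at 0.08. Of 3 further complex III factors, Uqcc1 was at -0.36 (SE 0.15) without overlap and Uqcc3 at -0.14. Of 16 further complex IV factors tested, 13 were below 0, with a median of -0.12, and 3 did not overlap. Lrpprc, which stabilises mitochondrial messenger RNA, had 9.67, 9.23 and 9.05 FPKM in NC and 7.64, 7.02 and 7.76 FPKM under the SFRP2-siRNA label. Taco1, the translation activator of the mitochondrial Cox1 message, was at -0.36 (SE 0.14). The 4 mitochondrially encoded subunits mt-Cytb, mt-Co1, mt-Co2 and mt-Co3 had a median of -0.90, and mt-Cytb and mt-Co1 did not overlap. These 2 had -0.93 (SE 0.53) and -0.75 (SE 0.55), with unadjusted limma p-values of 0.126 and 0.210. The groups overlapped in mt-Co2 and mt-Co3, at -1.13 (SE 0.58) and -0.87 (SE 0.35). Their unadjusted limma p-values were 0.0913 and 0.0421, and that of mt-Co3 was 0.518 after adjustment. NC 1 was far above NC 2 and 3 in mt-Cytb, at 34662 against 17644 and 14720 FPKM. The gap in mt-Co1 was narrow, with NC 3 at 19293 and SFRP2-siRNA 1 at 19180 FPKM.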

How the data were processed

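The 6 libraries came from wound tissue and were grouped, 3 NC and 3 labelled SFRP2-siRNA, by the treatment label. The authors deposited FPKM values per gene in 1 table, made from paired-end mRNA libraries. The submitters' processing notes name HISAT2, Subread and featureCounts, and versions, genome build and annotation are not given in the sources used here. Symbols matched 32582 of 33184 Ensembl IDs. Low values were whole multiples of 1 read (tolerance 0.02 reads) for 98.6% of 20943 genes checked with GENCODE vM21 exon lengths, which gave the totals. Mates of a pair may be counted singly, so reads may not be independent.

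Values were analysed as log2(FPKM + 1) for the 16005 genes that averaged at least 0.5 FPKM, a filter that all 36 members passed. The test was limma 3.58.1 in R 4.3.3 (lmFit, eBayes with intensity trend), two-sided, with Benjamini-Hochberg adjustment over all genes kept. The authors' DESeq2 thresholds were kept, but DESeq2 was not run. The deposited FPKM values fit no count model, and the reads recovered from them were used only with voom, as an alternative. Single values were compared by two-sided exact permutation tests. In simulated data of the same 16005 genes, 87.6% of 200 genes changed by 2 on the log2 scale were recovered, with a mean of 3.8 false calls. Each gene was drawn independently, a change of 2 is larger than that of any member, and smaller changes were not simulated.

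Members and lists were chosen with earlier results of these data known. Values in every library are given for complex II, Cycs, Cox4i2, Cox6a2 and Cox7a2l, and in each other role for the 2 smallest and the largest unadjusted p. Of other lists the 2 smallest p may be named. Exceptions chosen after values were seen are Uqcrh, Mb, Elovl3, Dio2, Ndufa4, Cox6b2 and the mitochondrially encoded subunits. Nrf1, Gabpa, Gabpb1 and Yy1 are named because their sites were searched. Libraries of a group differed by more than sampling noise, so none was counted as a duplicate. Same-numbered libraries are not stated to share an animal or batch. The 17 alternatives changed the pseudocount to 0.1, dropped the filter or set it at 2 FPKM, used 4 other scalings, sample weights, a replicate block or no intensity trend, left out each library, or ran voom on recovered reads. Promoter windows came from RefSeq, GRCm38.p6.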

Additional observations from a re-analysis of the deposited data

How the results depend on the processing

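No alternative brought a member past the adjusted threshold, and the lowest adjusted limma p of a member over all of them was 0.133, with estimated sample weights. The count of 11 members lower at an unadjusted p under 0.05, beside 2.86% of all genes, moved with the processing. It was 18 after rescaling to equal sums without mitochondrially encoded genes (4.16% of all genes) and 18 after quantile normalization (4.3%). Estimated sample weights gave 22 (5.1%) and the replicate block 20 (4.21%). Over the fits that each left out a library it ran from 4 without SFRP2-siRNA 2 (2.17%) to 15 without NC 2 (2.52%). The share of all genes thus moved too. Deviations of same-numbered libraries correlated at -0.05, -0.15 and 0.38, and those of the other pairs at -0.36 to 0.32. With 3 libraries a group, these values cannot tell whether same-numbered libraries were paired. The scalings moved the median of all genes from 0.13 to between 0.00 and 0.20. Of 611 fits of single members, 594 kept their direction and 17 reversed, in 6 members. Cox6a2 was 0.305 with sample weights and ran from -0.49 to 0.38 over the fits that left out a library. Rescaling to equal sums gave 0.017 for Cox7a2l, 0.049 for Surf1 and 0.022 for Cox15, and leaving out a library gave -0.10 to 0.061 for Surf1, -0.17 to 0.012 for Cox15, -0.36 to 0.0056 for Lyrm7 and -0.065 to 0.079 for Ttc19. Ttc19 was -0.092 without mitochondrially encoded genes, -0.12 after quantile normalization, -0.12 under sample weights and -0.14 after median-of-ratios scaling. The cause was not tested. The power to detect differences as small as those of the members, subunits and assembly factors alike, was not tested.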

Other observations

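Regulators of respiratory genes formed a list of 11, of which 5 had log2 fold changes below 0 and 6 above. Of the 11, 9 lay below the median of all genes. The groups did not overlap for 3 that were lower and 0 that were higher, against 3.92% and 13.9% of all genes. Their median was 0.05 beside 0.13 for all genes. The factors whose sites were searched overlapped between the groups, with Nrf1 at 0.13, Gabpa at -0.06, Gabpb1 at 0.05 and Yy1 at 0.20. Ppargc1b, a coactivator of mitochondrial genes, had 2.42, 2.69 and 1.79 FPKM in NC and 1.42, 1.53 and 1.32 FPKM under the SFRP2-siRNA label. Its groups did not overlap, with a log2 fold change of -0.44 (SE 0.14) and an unadjusted limma p of 0.0169 (adjusted 0.518). Ppargc1a, its relative in brown fat and muscle, had 1.73, 2.02 and 1.46 FPKM against 0.79, 1.10 and 1.52 FPKM, and SFRP2-siRNA 3 lay within the NC range.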
